A study of Mus musculus with 63 samples.

Results

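The genes described here were the 2 corticosteroid receptor genes, Nr3c1 and Nr3c2, and 8 genes that are widely used as readouts of glucocorticoid action, Fkbp5, Tsc22d3, Sgk1, Ddit4, Zbtb16, Hif3a, Klf9 and Dusp1. They were taken by name, with no threshold on a measured value, and all 10 were found among the 56980 Ensembl genes of the deposited count tables. RNA sequencing was performed on 4 cell populations sorted from the cortex of female C57BL/6J mice, housed from 12 weeks of age, 5 weeks after a burn or sham injury. Burn-injured mice received a full thickness flank burn over 7 to 8% of the body surface, and sham mice were anaesthetised and shaved only. All mice also carried an intracranial injection of 2 adeno-associated viruses into the motor cortex, 1 expressing eGFP from a CaMKII promoter and 1 expressing mRuby2 from an mDlx enhancer, and all received buprenorphine before surgery and paracetamol in the drinking water. A further dose of buprenorphine after surgery went to some burn-injured mice only. eGFP-positive cells (CaMKII positive neurons) and cells with both fluorophores (CaMKII-mDlx double-positive neurons) came from the motor cortex. ACSA2-positive astrocytes and CD11b-positive microglia came from the cortex caudal to it, so that neuron or glia sort and cortical region cannot be told apart. Each library was 1 mouse, and the same mice supplied several populations.

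The glucocorticoid receptor, encoded by Nr3c1, rests in the cytoplasm bound to heat shock protein 90 and its co-chaperones, enters the nucleus when it binds corticosterone, and raises transcription at short palindromic DNA elements. The mineralocorticoid receptor, encoded by Nr3c2, binds the same hormone with higher affinity and the same kind of element. In the brain the hormone reaches every cell type, and the set of genes it induces differs between neurons, astrocytes, microglia and vessels.

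Of 63 libraries from 18 mice, 58 libraries from 17 mice were kept. The 4 libraries of mouse 3 and the double-positive library of mouse 8, both removed by the authors, were left out. The kept libraries held between 13346143 and 134703744 counts, with a median of 24339895, so that 3 counts, the limit set by a count of 0, corresponded to between 0.0223 and 0.225 CPM, the counts of a gene scaled to 1000000 counts of its library. This limit covers counting error only. The CaMKII positive sort gave 4 burn and 6 sham libraries, the double-positive sort 9 and 7, astrocytes 9 and 8, and microglia 8 and 7. Sequencing was done in 3 batches, and batch 3 alone held 5 libraries of each group, except for 3 in the CaMKII positive burn group.

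The labels of both neuron sorts were not borne out by marker genes. In the libraries labelled CaMKII positive, 8 astrocyte markers summed to a median of 21026 CPM and 7 endothelial markers to 4898 CPM, against 73.0 CPM for 6 general neuron markers. In the libraries labelled double-positive, 8 microglia markers summed to a median of 20123 CPM, against 25543 CPM in the microglia libraries, while the neuron markers summed to 14.2 CPM and each of 8 inhibitory neuron markers had a median under 1 CPM. The astrocyte and microglia libraries carried their own markers, with medians of 40891 CPM for the astrocyte list and 25543 CPM for the microglia list. In what follows the populations are named by their sort, not by a cell type. In bulk libraries, fewer cells of a type and less RNA per cell cannot be told apart.

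Among the promoters of these genes, the full receptor element stood in that of Sgk1, and its sequence is shown for that reason. Sgk1 was among the most abundant members in double-positive libraries and microglia and had its lowest level in astrocytes. A link between element and level was not tested. RefSeq promoters of GRCm38.p6 covering 300 bases, 250 before each transcript start and 50 from it on, were searched on both strands with no mismatch. The palindrome that receptor dimers are known to bind, searched as AGAACA and TGTTCT with any 3 bases between them, occurred in 3 of 32851 promoters (0.00913%), and 1 of these belonged to Sgk1, out of 15 promoters of the 8 members with a promoter. It lay in a promoter at chr10:21993640-21993939 on the plus strand, with 174 bases between the element and the transcript start. The 250 bases before that start, at chr10:21993640-21993889, are given 5′ to 3′ with the palindrome in capitals.
Sgk1: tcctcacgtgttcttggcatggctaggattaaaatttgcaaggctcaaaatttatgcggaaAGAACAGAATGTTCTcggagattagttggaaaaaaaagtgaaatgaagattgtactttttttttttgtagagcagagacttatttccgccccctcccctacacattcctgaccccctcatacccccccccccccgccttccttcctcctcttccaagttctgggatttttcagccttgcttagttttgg
A looser form, GNACA and TGTNC with any 3 bases between them, which the same Sgk1 element also meets, occurred in 156 promoters (0.475%). Among 23 promoters of 18 other glucocorticoid targets it was found in 2, those of Mt1 (chr8:94178839-94179138, plus strand, 81 bases before the start) and Txnip (chr3:96557707-96558006, plus strand, 159 bases before the start). These 2 sites are shown with 6 bases on each side and the matching letters in capitals.
Mt1: ctatagGGACATGATGTTCcacacg
Txnip: ctaggaGCACACCGTGTCCacgcgc
The single repeat AGAACA was common, in 19% of all promoters and in 4 of the 15 of the members, 3 of Sgk1 and 1 of Tsc22d3. A match describes letters in a window, and no binding was measured.

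The glucocorticoid receptor gene was present at nearly the same level in all 4 populations. Nr3c1 stood at 286 ± 34.5 CPM (SD, n = 10) in CaMKII positive libraries, 284 ± 28.3 CPM (n = 16) in double-positive libraries, 257 ± 29.1 CPM (n = 17) in astrocytes and 319 ± 37.6 CPM (n = 15) in microglia. Single libraries ran from 198 to 380 CPM over the whole set, and every population overlapped every other. Genes were called between populations where edgeR's quasi-likelihood test over 33150 genes gave a p.adj no higher than 0.05 and the log2FC was 1 or more in size. Nr3c1 was called in 0 of 6 comparisons. Its largest differences were those of astrocytes from microglia (log2FC -0.25, SE 0.069, p.adj = 0.00122) and of CaMKII positive libraries from microglia (log2FC -0.25, SE 0.081, p.adj = 0.00568), each passing the p but not the fold.

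The mineralocorticoid receptor gene separated the populations into a pair with high and a pair with low levels. Nr3c2 ranged from 76.6 to 111 CPM in astrocytes, with a median of 93.7 CPM, and from 62.8 to 108 CPM in CaMKII positive libraries, with a median of 84.0 CPM. It ranged from 27.0 to 39.7 CPM in double-positive libraries and from 22.9 to 38.3 CPM in microglia, so that the pairs did not overlap. Astrocytes exceeded microglia by a log2FC of 1.73 (SE 0.076, p.adj = 7.42e-29), while double-positive libraries and microglia were not separated (log2FC 0.17, p.adj = 0.135). Per kb of exon, the mean level of Nr3c1 exceeded that of Nr3c2 in all 4 populations, with 33.4 against 14.4 CPM per kb in astrocytes and 41.5 against 4.60 CPM per kb in microglia. Some Nr3c2 exon sequence (3.82%) is shared with an antisense gene, as is 0.332% of that of Dusp1, and whether strand was used in counting is not given in the sources used here.

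Some genes that handle the receptor or its hormone differed between populations. Of 15 genes for chaperones, co-regulators, hormone-converting enzymes and an efflux pump, 3 were higher and 2 lower in astrocytes than in microglia, beside 53.8% of all genes called in that comparison. Hsd11b1, whose enzyme regenerates active hormone inside cells, averaged 171 CPM in astrocytes, 62.5 CPM in CaMKII positive libraries, 1.88 CPM in double-positive libraries and 1.18 CPM in microglia. Abcb1a, which encodes a pump that carries glucocorticoids out of the brain at the vessel wall, averaged 886 CPM in CaMKII positive libraries and 102 CPM in astrocytes, and the endothelial marker list moved beside it. Nrip1, a co-regulator of nuclear receptors (log2FC -2.54), and H6pd, which supplies the cofactor for Hsd11b1 (log2FC -2.27), were lower in astrocytes than in microglia. None of the 15 genes was called between double-positive libraries and microglia, beside 7.98% of all genes.

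Fkbp5, which encodes a co-chaperone that lowers the affinity of the receptor for hormone, was all but missing from astrocytes. Its level ran from 0 to 3.30 CPM in the 17 astrocyte libraries, with a median of 1.08 CPM, and from 50.1 to 88.2 CPM in microglia, with a median of 61.5 CPM. Double-positive libraries held 46.0 to 82.2 CPM and CaMKII positive libraries 6.61 to 33.5 CPM. No population overlapped another except for double-positive libraries and microglia. The log2FC of astrocytes against microglia was -5.58 (SE 0.28, p.adj = 2.20e-26), and that of CaMKII positive libraries against astrocytes 3.16 (SE 0.27, p.adj = 9.27e-15).

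Sgk1, the serum- and glucocorticoid-regulated kinase that acts on ion channels and transporters, was likewise highest in microglia and double-positive libraries and lowest in astrocytes. Its medians were 743 CPM in microglia (485 to 931 CPM), 583 CPM in double-positive libraries (380 to 1069 CPM), 129 CPM in CaMKII positive libraries (88.8 to 186 CPM) and 20.3 CPM in astrocytes (7.26 to 49.2 CPM). Only the first 2 of these overlapped. Sgk1 was lower in astrocytes than in microglia by a log2FC of -4.95 (SE 0.18, p.adj = 4.31e-33), and its log2FC between double-positive libraries and microglia was -0.26 (p.adj = 0.326).

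Dusp1, a phosphatase that switches off MAP kinases, had the highest CPM per kb of the members in all populations but astrocytes. Its mean level was 1466 ± 306 CPM in double-positive libraries, 1376 ± 244 CPM in microglia, 502 ± 101 CPM in CaMKII positive libraries and 143 ± 45.2 CPM in astrocytes, with n as given for Nr3c1. Again only double-positive libraries and microglia overlapped. The log2FC of astrocytes against microglia was -3.20 (SE 0.13, p.adj = 2.80e-30). Dusp1 is also induced by cell stress and by dissociation, and 12 immediate early genes moved beside it: 12 of 12 were lower in astrocytes than in microglia (beside 53.8% of all genes called), with a median log2FC of -4.00, and they summed to a median of 22106 CPM in microglia and 22527 CPM in double-positive libraries, against 4763 CPM in CaMKII positive libraries and 1276 CPM in astrocytes. Sgk1 went with Dusp1 over libraries, at batch-centred r of 0.79 (CaMKII positive), 0.44 (double-positive), 0.62 (astrocytes) and 0.89 (microglia). The part of the immediate early genes in the Dusp1 and Sgk1 differences was not tested.

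Klf9, Hif3a, Zbtb16 and Ddit4 had the opposite order, high in astrocytes and CaMKII positive libraries. Klf9, a zinc finger transcription factor induced by several nuclear receptors, ran from 190 to 295 CPM in astrocytes and 172 to 242 CPM in CaMKII positive libraries, against 5.31 to 25.7 CPM in double-positive libraries and 2.08 to 8.11 CPM in microglia. Hif3a, a hypoxia-inducible factor subunit that tempers the response to low oxygen, ran from 26.0 to 200.2 CPM in astrocytes and 8.78 to 81.7 CPM in CaMKII positive libraries, with every double-positive library at or below 4.03 CPM and every microglia library at or below 1.57 CPM. The log2FC of astrocytes against microglia was 5.74 for Klf9 (SE 0.20, p.adj = 3.42e-34) and 6.12 for Hif3a (SE 0.28, p.adj = 9.08e-28).

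Zbtb16, a zinc finger repressor also known as PLZF, ran from 13.8 to 77.7 CPM in CaMKII positive libraries and 15.0 to 45.3 CPM in astrocytes, against 0 to 11.6 CPM in double-positive libraries and 0.310 to 4.63 CPM in microglia. Ddit4, also called REDD1, which restrains mTOR signalling, had the smallest log2FC of this group, at 64.7 to 147 CPM in astrocytes, 62.9 to 97.5 CPM in CaMKII positive libraries, 6.89 to 35.4 CPM in double-positive libraries and 8.79 to 46.3 CPM in microglia. For both genes the high pair and the low pair did not overlap. The log2FC of astrocytes against microglia was 4.14 for Zbtb16 (SE 0.42, p.adj = 2.97e-13) and 2.21 for Ddit4 (SE 0.18, p.adj = 3.03e-16). Ddit4 is also a hypoxia target, and 7 of 9 other hypoxia targets were higher and 0 lower in astrocytes than in microglia, beside 53.8% of all genes called in either direction.

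Tsc22d3, which encodes the anti-inflammatory leucine zipper protein GILZ, was even across populations. Its means were 217 ± 70.9 CPM in CaMKII positive libraries, 218 ± 60.6 CPM in double-positive libraries, 198 ± 70.1 CPM in astrocytes and 182 ± 39.6 CPM in microglia. Single libraries ran from 139 to 352 CPM in CaMKII positive libraries, from 110 to 325 CPM in double-positive libraries, from 101 to 350 CPM in astrocytes and, over a narrower range, from 116 to 250.2 CPM in microglia. Tsc22d3 was called in 0 of the 6 comparisons, and its log2FC of astrocytes against microglia was 0.15 (p.adj = 0.410).

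**Figure D1:**
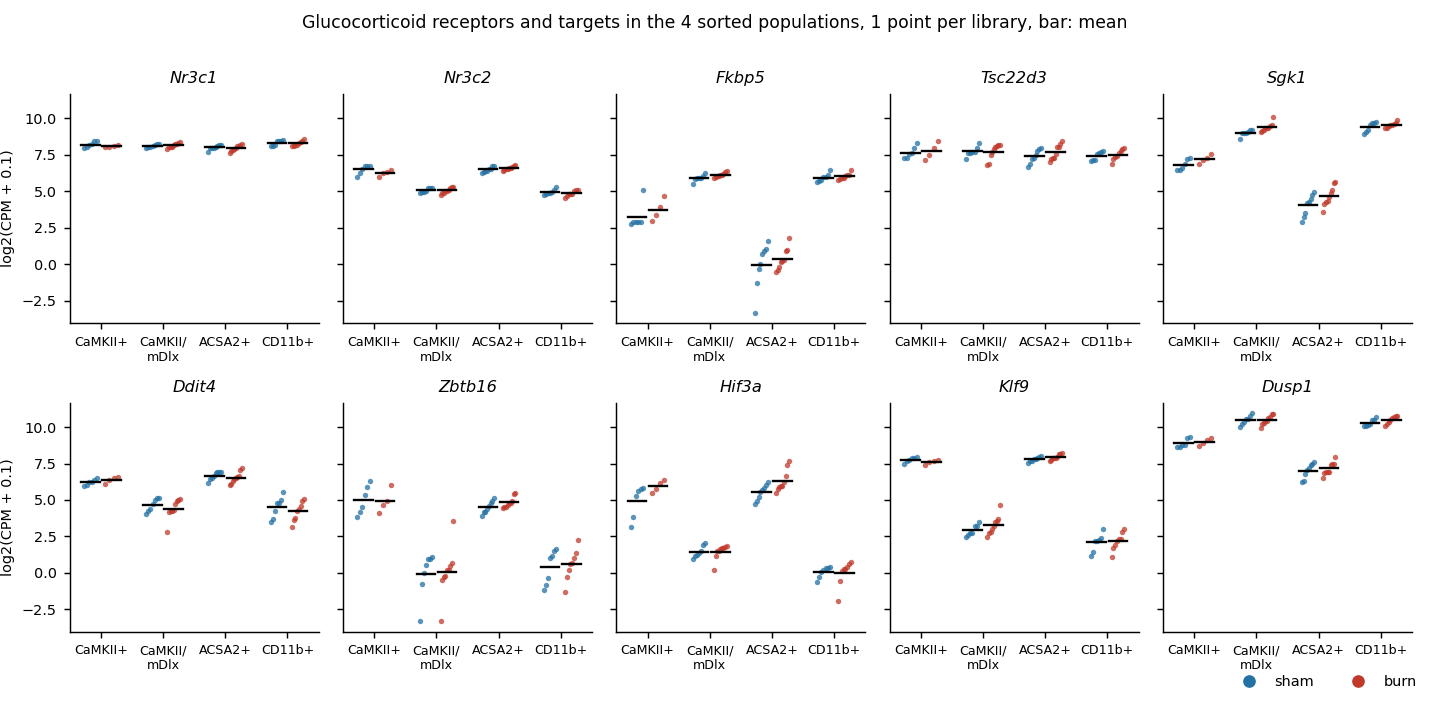
Level of each of the 10 genes in single libraries, as log2(CPM + 0.1) on the vertical axis, by sorted population and by sham (blue) or burn (red), with the mean of each group as a bar. Nr3c1 and Tsc22d3 are level across populations, Fkbp5, Sgk1 and Dusp1 are lowest in astrocytes, and Nr3c2, Ddit4, Zbtb16, Hif3a and Klf9 are lowest in double-positive libraries and microglia.

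The number of members called between 2 populations ran from 2 to 8 of 10. In astrocytes against microglia 8 of 10 were called, 5 higher and 3 lower, beside 53.8% of all genes. The same numbers were called in CaMKII positive libraries against microglia (8 of 10, beside 45.5% of all genes) and against double-positive libraries (8 of 10, beside 45.2%), and 8 of 10 in double-positive libraries against astrocytes, 3 higher and 5 lower, beside 52.5%. In CaMKII positive libraries against astrocytes, Fkbp5 (log2FC 3.16), Sgk1 (log2FC 2.38, SE 0.17) and Dusp1 (log2FC 1.63, SE 0.14) were called, 3 of 10 beside 18.4% of all genes. In double-positive libraries against microglia, Hif3a (log2FC 1.42, SE 0.25, p.adj = 3.81e-05) and Klf9 (log2FC 1.02, SE 0.17, p.adj = 8.51e-06) were called, 2 of 10 beside 7.98%. Klf9 there stood just above the minimum fold: without mouse 10, whose double-positive library held 25.7 CPM, its log2FC was 0.82, with batch 3 alone 0.62, and with the mouse as a replicate block 0.98, each under the minimum fold.

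The CaMKII positive libraries lay between astrocytes and the CD11b sort for Fkbp5, Sgk1 and Dusp1. Their mean Fkbp5 was 20.2% of that in microglia, their Sgk1 17.7% and their Dusp1 36.5%. Beside this, their summed microglia markers were 4.07% of those in microglia, their border macrophage markers 6.27%, and their astrocyte markers 47.9% of those in astrocytes. Endothelial markers were highest in this sort, at 3816 to 10793 CPM, against 151 to 1442 CPM in astrocytes. The double-positive libraries held 83.2% of the microglia list of the CD11b sort and 2.21% of the astrocyte list of the ACSA2 sort. The part of any of these cell types in the members' levels was not tested.

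The members were also compared with each other within a population, per kb of exon. In microglia Dusp1 (416 CPM per kb) and Sgk1 (149 CPM per kb) stood highest, followed by Tsc22d3 (41.8) and Nr3c1 (41.5), which did not differ beyond their spread, and Zbtb16 (0.318) and Hif3a (0.149) stood lowest. In double-positive libraries the first were again Dusp1 (443 CPM per kb) and Sgk1 (125 CPM per kb), and the last were Hif3a (0.408 CPM per kb) and Zbtb16, whose libraries ran from 0 to 11.6 CPM with a median of 1.04 CPM and whose order with Hif3a is not given. In astrocytes 5 members lay close together, Ddit4 (56.6 CPM per kb), Klf9 (49.1), Tsc22d3 (45.6), Dusp1 (43.3) and Nr3c1 (33.4), and Fkbp5 stood last at 0.137 CPM per kb. In CaMKII positive libraries Dusp1 led at 152 CPM per kb and Fkbp5 was last at 1.36 CPM per kb.

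Other targets of the receptor also differed between populations in both directions. Of 20 further genes known to be induced by glucocorticoids, 6 were higher and 9 lower in astrocytes than in microglia, beside 53.8% of all genes called. The higher ones were Pdk4, which curbs glucose oxidation (107.5 against 0.291 CPM), Plin4 and Angptl4 of lipid handling, the metallothioneins Mt1 (584 against 29.7 CPM) and Mt2 (212 against 1.68 CPM), and the scaffold gene Nedd9 (log2FC 2.69). The lower ones included Nfkbia, the inhibitor of NF-kB (47.2 against 658 CPM), Errfi1 (log2FC -2.94), Cebpd (log2FC -2.24) and the clock gene Per1 (118 against 301 CPM). Cd163, also lower, is a border macrophage marker as well. Between double-positive libraries and microglia 3 of the 20 were higher and 2 lower, beside 7.98% of all genes called.

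The main question of the study was whether burn injury changed these populations, and no member passed the test in any of them. A total of 0 of 10 members were called in CaMKII positive, double-positive, astrocyte or microglia libraries by edgeR, beside 0% of all genes in each (0 of 28107, 26707, 27930 and 26079 genes tested). DESeq2 called 0 of the 10 as well, among 3, 2, 27 and 80 genes in all in CaMKII positive, double-positive, astrocyte and microglia libraries. At an unadjusted p under 0.05, edgeR had 1096, 1872, 2984 and 2036 genes in that order. At an unadjusted p under 0.05 there were 0 members in CaMKII positive libraries and 2 in each other population, and the smallest p.adj of a member was 1.00, 0.708, 0.458 and 0.639 in that order. Burn and sham ranges overlapped for all 10 members in every population, beside 0.37%, 0%, 0.0143% and 0.0153% of genes without overlap. The median log2FC of the members was 0.13 in CaMKII positive libraries (all genes 0.018), 0.042 in double-positive libraries (all genes -0.0039), 0.10 in astrocytes (all genes 0.045) and 0.047 in microglia (all genes 0.0022).

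**Figure D2:**
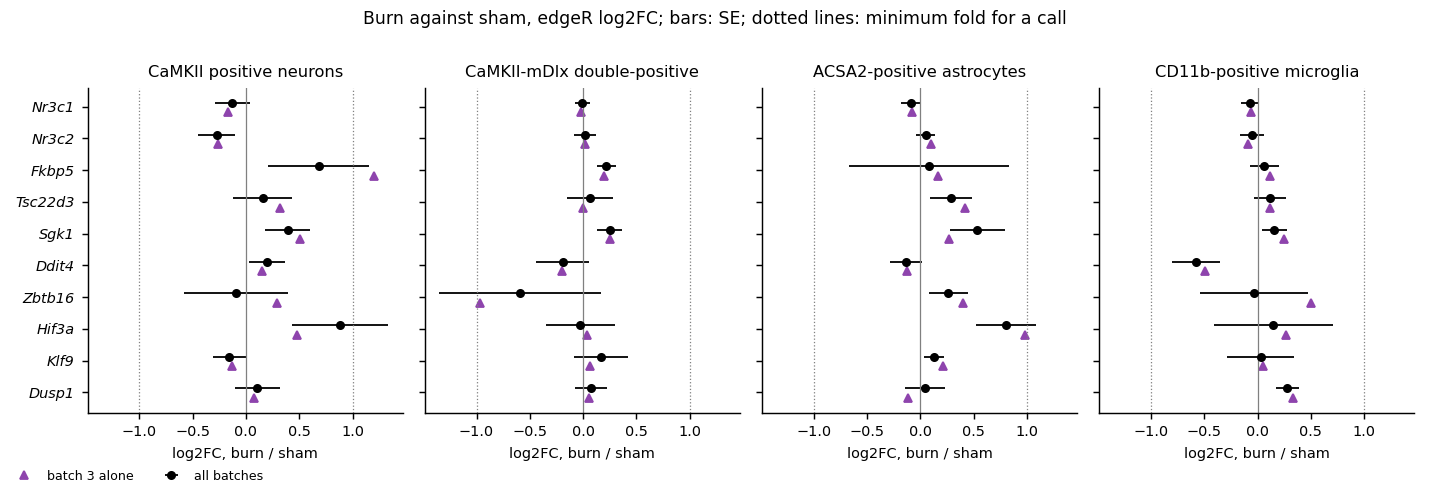
log2FC of burn against sham on the horizontal axis for each gene and sorted population, with the edgeR estimate over all batches (circles, bars: SE) and that within batch 3 alone (triangles). Dotted lines mark the minimum fold for a call, and no circle lies beyond them, the largest being Hif3a in CaMKII positive libraries at 0.88.

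Neither receptor gene was called with burn, and the groups overlapped. Nr3c1 in microglia ran from 273 to 380 CPM in burn-injured mice and from 277 to 373 CPM in sham mice, and in astrocytes from 198 to 299.5 CPM and from 209 to 285 CPM. Its log2FC lay below 0 in 4 of 4 populations, between -0.13 and -0.0069. That of Nr3c2 lay between -0.28 (CaMKII positive, SE 0.17) and 0.049 (astrocytes). The sign of the small Nr3c1 difference in double-positive libraries changed without a batch term.

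Hif3a had the smallest p.adj of the members and the largest log2FC. In astrocytes it ran from 43.9 to 200.2 CPM in burn-injured mice with a median of 63.5 CPM, and from 26.0 to 74.9 CPM in sham mice with a median of 48.7 CPM. The highest burn libraries were those of mouse 10 (200.2 CPM), mouse 24 (167 CPM) and mouse 20 (100.1 CPM), and the remaining burn libraries lay within the sham range. The log2FC was 0.80 (SE 0.29, p.adj = 0.458), between 0.56 and 0.97 with any 1 mouse left out, lowest without mouse 24, and 0.98 within batch 3 (p.adj = 0.470). In CaMKII positive libraries Hif3a stood at 81.7, 45.3, 55.2 and 70.2 CPM in burn-injured mice 2, 20, 22 and 24, and at 14.3, 38.3, 54.4, 8.78, 56.5 and 48.8 CPM in sham mice 8 and 15 to 19. The lowest of these, sham mouse 17, also had the highest endothelial list (10793 CPM) and the lowest astrocyte list (13371 CPM) of the sort, and their part was not tested. The log2FC there was 0.88 (SE 0.45, p.adj = 1.00) and 0.48 within batch 3 or without either of mice 2 and 8.

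Like Fkbp5, Tsc22d3 and Dusp1, Sgk1 lay above 0 in 4 of 4 populations, which share mice and so are not independent. In double-positive libraries it ran from 542 to 1069 CPM in burn-injured mice with a median of 656 CPM, and from 380 to 599 CPM in sham mice with a median of 521 CPM (log2FC 0.25, SE 0.12, p.adj = 0.708). The highest library was that of mouse 7, and the groups overlapped between 542 and 599 CPM. In astrocytes it ran from 12.1 to 49.2 CPM and from 7.26 to 31.1 CPM, with medians of 24.8 and 18.6 CPM (log2FC 0.53, SE 0.26, p.adj = 0.462). The 2 highest astrocyte libraries, those of burn-injured mice 2 and 24, also had the highest summed endothelial markers (1442 and 1260 CPM) and the lowest, that of sham mouse 12, the lowest (151 CPM). Endothelial markers in astrocytes had a median log2FC of 0.57 with burn, 7 of 7 above 0, and their part in the Sgk1 values was not tested. The astrocyte log2FC was 0.27 without mouse 11 or within batch 3, and 0.32 without mouse 24.

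Fkbp5 also lay above 0 in 4 of 4 populations, but with single mice left out its log2FC ran from -0.24 to 0.39 in astrocytes and from -0.035 to 0.21 in microglia. In double-positive libraries it ran from 60.7 to 82.2 CPM in burn-injured mice, with a median of 68.6 CPM, and from 46.0 to 74.4 CPM in sham mice, with a median of 59.9 CPM (log2FC 0.22, SE 0.090, p.adj = 0.708). In CaMKII positive libraries it stood at 10.3, 25.8, 7.64 and 15.4 CPM in burn-injured mice 2, 20, 22 and 24, against 33.5 CPM in sham mouse 8 and 6.61 to 7.47 CPM in the other 5 sham mice. The log2FC was 0.68 (SE 0.47, p.adj = 1.00), 1.20 without mouse 8, without mouse 2 or within batch 3, and 0.15 without mouse 20. Within batch 3 the groups did not overlap, and Fkbp5 was the 1 member of 10 for which this was so, beside 1.48% of all genes. Mouse 8 also had the highest oligodendrocyte list of the sort (3823 CPM, against 293 to 1387 CPM in the others), and mouse 20 the highest microglia list (1826 CPM, lowest 449 CPM), and the part of either was not tested. In no other population did a member separate within batch 3, beside 0.625% of genes in double-positive libraries, 0.72% in astrocytes and 0.709% in microglia.

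Ddit4 and Dusp1 had the smallest unadjusted p of the members in microglia, with opposite signs. Ddit4 ran from 8.79 to 33.1 CPM in burn-injured mice with a median of 19.8 CPM, and from 11.3 to 46.3 CPM in sham mice with a median of 28.3 CPM (log2FC -0.58, SE 0.22, p.adj = 0.639). Beside it, 9 of 9 hypoxia targets lay below 0 with a median log2FC of -0.63, as did 6 of 7 endothelial markers (median -0.82) and 6 of 8 astrocyte markers (median -0.56), none of them called. Dusp1 ran from 1083 to 1712 CPM with a median of 1508 CPM, and from 1074 to 1647 CPM with a median of 1167 CPM (log2FC 0.28, SE 0.11, p.adj = 0.639). In microglia 10 of 12 immediate early genes lay above 0 with a median log2FC of 0.17, and their part was not tested. Both genes kept their sign without any 1 mouse, at -0.82 to -0.47 for Ddit4 and 0.23 to 0.36 for Dusp1.

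Burn and sham libraries overlapped over most of their range for Tsc22d3, Klf9 and Zbtb16. Tsc22d3 in CaMKII positive libraries stood at 179, 352, 139 and 251 CPM in burn-injured mice 2, 20, 22 and 24, and ran from 157 to 310 CPM in sham mice. Klf9 in astrocytes ran from 204 to 295 CPM in burn-injured mice and from 190 to 255 CPM in sham mice (log2FC 0.13). Zbtb16 in astrocytes ran from 22.1 to 45.3 CPM and from 15.0 to 34.9 CPM (log2FC 0.26), and in double-positive libraries the groups overlapped near 1 CPM (log2FC -0.59, SE 0.76, and 0.77 with no batch term). With single mice left out that value ran from -0.97 (without mouse 11) to -0.32 (without mouse 23). The highest double-positive library for both Zbtb16 (11.6 CPM) and Klf9 (25.7 CPM) was that of burn-injured mouse 10, which also held 639.7 CPM of endothelial markers against a median of 76.8 CPM.

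**Figure D3:**
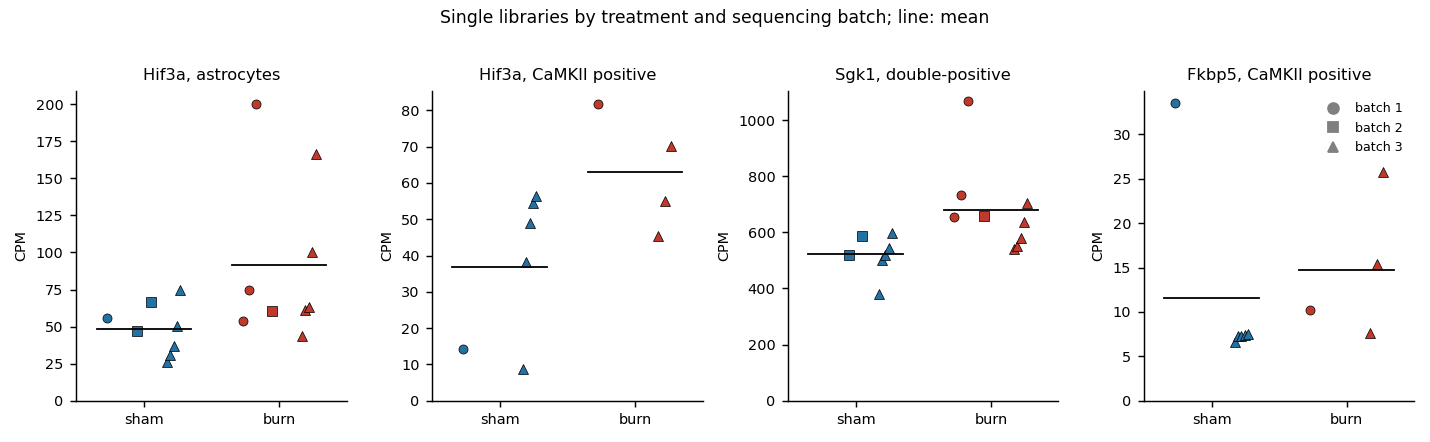
CPM of single libraries on the vertical axis for Hif3a in astrocytes, Hif3a in CaMKII positive, Sgk1 in double-positive and Fkbp5 in CaMKII positive libraries, by treatment, with a shape for each sequencing batch and the mean as a line. In each panel burn and sham overlap, and a batch 1 library is the highest in all 4 panels, burn-injured mouse 10 at 200.2 CPM for Hif3a in astrocytes and sham mouse 8 at 33.5 CPM for Fkbp5.

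The wider lists of genes likewise held no call with burn. Of the 20 other glucocorticoid targets, 13, 15, 13 and 11 lay above 0 in CaMKII positive, double-positive, astrocyte and microglia libraries. The median log2FC of all genes was 0.018, -0.0039, 0.045 and 0.0022 in that order. At an unadjusted p under 0.05 by edgeR there were 0, 2, 2 and 3 of the 20. Beside them stood 1096 of 28107, 1872 of 26707, 2984 of 27930 and 2036 of 26079 genes. Per1 stood at a log2FC of 0.44 in double-positive libraries and 0.37 in microglia, its values in the other populations not being reported here. Of the 15 receptor machinery genes, 9 lay above 0 in CaMKII positive libraries and 5, 6 and 4 in the other populations. Abcb1a stood at a log2FC of 0.59 in astrocytes and -1.32 in microglia, in each case with the sign of the endothelial list.

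Whether the treatment difference varied between populations was tested as an interaction over all 58 libraries. No member passed (0 of 10, beside 0.0241% of genes), and the smallest p.adj was that of Hif3a at 0.668. With the mouse as a replicate block, 0 genes in all passed. Batch 3 was also compared with the earlier batches within each population, since batch and the balance of burn and sham went partly together. No member was called there, beside 0%, 1.12%, 1.03% and 0.399% of genes in CaMKII positive, double-positive, astrocyte and microglia libraries. The double-positive sort held no sham library of batch 1, so that its burn libraries of that batch carry no comparison of their own.

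Since the same mice supplied several populations, the level of each member was compared between populations over mice, after subtracting the batch mean of log2(CPM + 0.1). Of 60 correlations, 10 members in 6 pairs of populations, 43 lay above 0, beside 51.9 to 65.2% of all genes in the same pairs. In these correlations over mice, all genes means those with a mean of at least 1 CPM in both populations. By permutation, run for the members only, 3 of the 60 had a p.adj of at most 0.05. By rank correlation 0 did (smallest p.adj 0.0833). Tsc22d3 of double-positive libraries and microglia had Pearson's r of 0.811 and Spearman's rho of 0.736 (n = 14, permutation p = 0.00101, p.adj = 0.0303). Zbtb16 of CaMKII positive libraries and astrocytes had r of 0.870 and rho of 0.867 (n = 10, exact permutation p = 0.000719, p.adj = 0.0303). Ddit4 of astrocytes and microglia had r of 0.768 and rho of 0.782 (n = 15, permutation p = 0.00225, p.adj = 0.045). In the same pairs, 0.503%, 0.618% and 0.353% of all genes had an r at or above these 3 values. Without the 2 mice farthest from the median the 3 r values were 0.703, 0.749 and 0.634. Within batch 3 they were 0.789, 0.918 and 0.770, in each case with a p.adj above 0.05.

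Tsc22d3 had the highest median r of the members over the 6 pairs of populations (0.759). Its r was 0.821 (CaMKII positive and double-positive, n = 9), 0.832 (CaMKII positive and astrocytes, n = 10), 0.652 (CaMKII positive and microglia, n = 10), 0.481 (double-positive and astrocytes, n = 16), 0.811 and 0.708 (astrocytes and microglia, n = 15), and 0.503 to 5.57% of all genes had a higher r in the same pair. The median r of all genes lay between 0.0156 and 0.155. A mouse alone in its batch within a pair stood at 0 on both axes after centring and added nothing. For CaMKII positive and double-positive libraries this was mouse 2, so that r there rests on the 8 mice of batch 3. For microglia with double-positive libraries or astrocytes it was mouse 13. In burn-injured mouse 20, Tsc22d3 stood at 352, 284, 350 and 236 CPM in CaMKII positive, double-positive, astrocyte and microglia libraries, and in sham mouse 19 at 310, 325, 222 and 197 CPM. In burn-injured mouse 22 it stood at 139, 110, 153 and 116 CPM in the same order. Mouse 22 was the lowest kept mouse in CaMKII positive, double-positive and microglia libraries, and sham mouse 16 (101 CPM) in astrocytes. Fkbp5 and Nr3c2 also had r above 0 in 6 of 6 pairs, between 0.081 and 0.532 for Fkbp5 and between 0.030 and 0.399 for Nr3c2, none past the test. Libraries of a mouse share its dissection and handling, which cannot be told apart from the state of the animal.

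**Figure D4:**
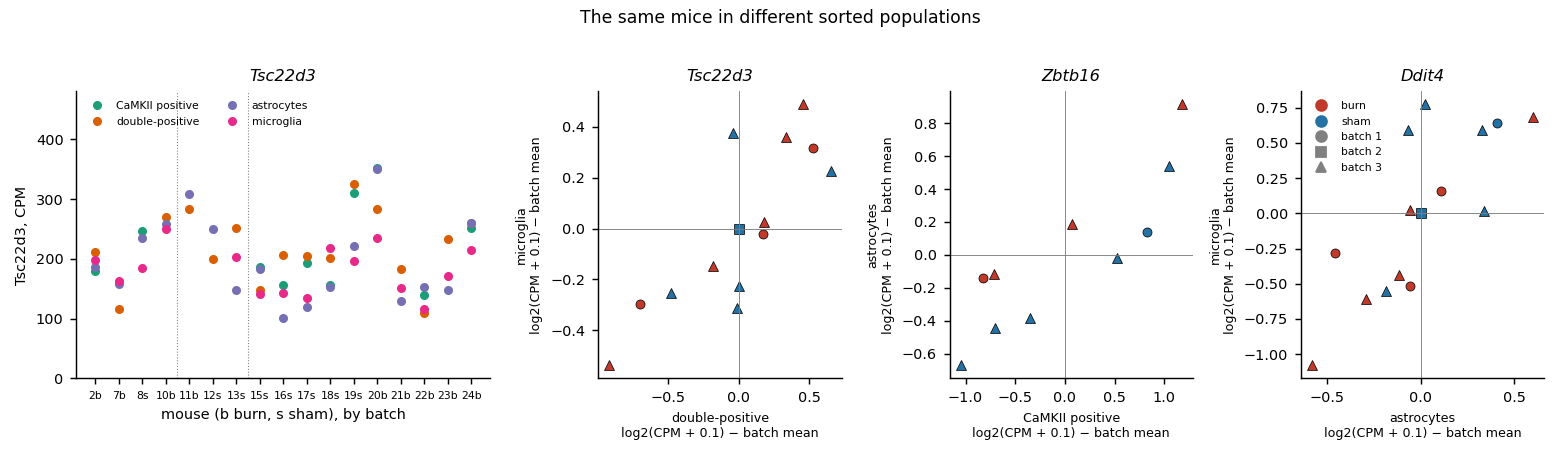
Left, Tsc22d3 in CPM for each mouse, ordered by batch (b burn, s sham), with a colour for each sorted population. Right, 3 pairs of populations in which a gene was correlated over mice, as log2(CPM + 0.1) less the batch mean on both axes, coloured by treatment and shaped by batch, with r of 0.811 for Tsc22d3, 0.870 for Zbtb16 and 0.768 for Ddit4.

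The genes whose pattern over libraries was most like that of Fkbp5 were found within each population by Pearson's r of batch-centred log2(CPM + 0.1), as a description. In CaMKII positive libraries these were Rab7b (r 0.95) and Zfp750 (r 0.94) among 17583 genes over 10 libraries, in double-positive libraries Rbmxl1 and Gm48405 (both 0.83, 15636 genes, 16 libraries), in astrocytes Gm43072 and Zfp2 (both 0.85, 16171 genes, 17 libraries), and in microglia Itm2b (0.90) and Exoc8 (0.89) were among the 5 nearest of 14770 genes over 15 libraries. The receptor chaperone gene Hsp90ab1 was also among these 5 in microglia (r 0.885). The glucocorticoid targets nearest to Fkbp5 were Mt1 in CaMKII positive libraries (r 0.79, rank 86), Per1 in double-positive libraries (r 0.59, rank 242) and Txnip in microglia (r 0.69, rank 276), while in astrocytes the nearest of the other targets was Mertk (r 0.32, rank 1938) and the nearest member Hif3a (r 0.53, rank 428). These are the highest of the list in each population. The lowest of the other targets were Cd163 in CaMKII positive libraries (r -0.51) and Cebpd in double-positive libraries (r -0.67, rank 15581). In astrocytes the lowest was Sesn1 (r -0.34) and in microglia Arrdc2 (r -0.52). Libraries of a population share depth and composition differences, and no p is attached to these values.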

How the data were processed

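The authors prepared libraries with a stranded total RNA kit after ribosomal depletion, sequenced them paired-end on an Illumina NovaSeq, trimmed reads with fastp, aligned them with STAR to a mouse genome named both mm10 and GRCm39 in the sources, and counted them on Ensembl genes with GenomicAlignments. The deposited raw counts, 1 table per sorted population, were used as they stand. The authors' deposited tables of normalised values on a log2 scale were not used. The 10 members and all gene lists were chosen with earlier results of these data known.

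Counts were scaled to CPM of the library total, and divided by the summed exon length for levels per kb (annotation of GRCm38). Burn was tested against sham within each population with edgeR 4.0.16 in R 4.3.3 (quasi-likelihood, TMM factors 0.849 to 1.21, genes with at least 10 counts in total, batch and treatment as terms), and populations in 1 fit over all kept libraries, with Benjamini-Hochberg adjustment over all genes (p.adj). SE was taken as log2FC over the root of its F statistic. DESeq2 1.42.0, other filters and scalings, a block for the mouse, batch 3 alone and the removal of single mice were alternatives. Correlations over mice used exact permutations up to n = 10 and 100000 draws above. No 2 libraries held identical counts (1953 pairs). Replicates are separate mice. The mouse number pairs libraries of different populations, since they came from the same animals, and their deviations from group means had median correlations between -0.034 and 0.098. Genes named beyond the members came from the fixed lists, and not every list gene that was called is named. Some of the 5 nearest to Fkbp5 in each population are also named, the others not being reported here. Scripts were tested on simulated counts.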

Additional observations from a re-analysis of the deposited data

Results flagged for a closer look

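A total of 7 of 80 groups of libraries held a library far from the rest by Dixon's test, which chance does in about 1 in 20 groups. Among sham astrocyte libraries, Nr3c1 was lowest in mouse 17 (208.7 CPM), while the lowest over both treatments was 197.6 CPM. Fkbp5 was highest of its treatment group in the CaMKII positive library of sham mouse 8 (33.5 CPM) and the astrocytes of burn-injured mouse 24 (3.30 CPM). It was also highest among burn libraries in the microglia of mouse 20 (87.6 CPM), where a sham library reached 88.2 CPM. Sgk1 was highest in the double-positive library of burn-injured mouse 7 (1069 CPM). Zbtb16 (11.6 CPM) and Klf9 (25.7 CPM) were highest in the double-positive library of burn-injured mouse 10.

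Mouse 3, a burn-injured mouse that the authors removed for skin ulceration, entered no main comparison, only alternatives such as that with all 63 libraries. Of its 40 values, 14 lay above every kept library of the same population while 0 lay below. The 14 values covered 8 of the 10 genes and none of the receptor genes. Fkbp5 stood at 110.8 CPM in double-positive libraries, 3.61 CPM in astrocytes and 109 CPM in microglia, and Tsc22d3 at 487.7 CPM in CaMKII positive libraries and 254.8 CPM in microglia. Sgk1 (57.4 CPM) and Dusp1 (248 CPM) were above the others in astrocytes, where mouse 3 also had more endothelial markers (1948 CPM) than any kept library (highest 1442 CPM), and Zbtb16 in CaMKII positive libraries (103 CPM) and astrocytes (60.6 CPM). Ddit4 stood at 141 CPM in CaMKII positive and 58.02 CPM in double-positive libraries, Hif3a at 98.8 CPM in CaMKII positive libraries and 2.41 CPM in microglia, and Klf9 at 323.5 CPM in CaMKII positive libraries. Over all genes of at least 1 CPM on average, 3.25%, 1.73%, 5.51% and 11.4% lay above every kept library in CaMKII positive, double-positive, astrocyte and microglia libraries, and 6.45%, 2.25%, 3.19% and 5.50% lay below. This is 1 animal, and the cause was not tested.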

How the results depend on the processing

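Of 320 burn values of single genes under settings other than the removal of single mice, 304 kept their sign and none was called. Depth of the kept libraries limits only the lowest values, those of Fkbp5 in astrocytes and of Zbtb16 and Hif3a in double-positive libraries and microglia. In 16 the sign changed. With all 63 libraries these were Zbtb16 in CaMKII positive libraries (0.19) and microglia (0.18), and Ddit4 (0.092), Hif3a (0.12) and Nr3c1 (0.45) in double-positive libraries. Within batch 3 they were Zbtb16 in CaMKII positive libraries (0.29) and microglia (0.50), Dusp1 in astrocytes (-0.11), and Hif3a (0.033) and Tsc22d3 (-0.0059) in double-positive libraries. With no batch term they were Dusp1 (-0.0029), Hif3a (0.0040), Nr3c1 (0.046), Tsc22d3 (-0.018) and Zbtb16 (0.77) in double-positive libraries and Zbtb16 in microglia (0.17). The 63 libraries include the double-positive library of sham mouse 8, which held only 331215 counts. Its Nr3c1 stood at 0 CPM, against 240.2 to 339.6 CPM in kept double-positive libraries.

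With the mouse as a replicate block, Nr3c1 (0.014) and Tsc22d3 (-0.016) changed sign between CaMKII positive libraries and astrocytes, 1 member (Hif3a) and 1529 genes were called between double-positive libraries and microglia, 0 genes were called for the interaction, and no other call of a member changed. Nr3c1 between CaMKII positive libraries and astrocytes was also above 0 with DESeq2 (0.063), RLE size factors (0.063), no filter (0.011), all 63 libraries (0.076) and batch 3 (0.14). With all 63 libraries, Nr3c1 (0.074) and Tsc22d3 (0.25) changed sign between CaMKII positive and double-positive libraries, as did Tsc22d3 between double-positive libraries and astrocytes (-0.030) and Fkbp5 between double-positive libraries and microglia (-0.043, and -0.061 within batch 3). Between these last 2 populations 1 member was called with DESeq2, RLE, all 63 libraries or batch 3, where 1056 genes were called. With no minimum fold, 5 members and 10861 genes were called between CaMKII positive libraries and astrocytes, and 648, 1589 and 458 genes for batch in astrocytes, double-positive libraries and microglia. The interaction called 15 genes with RLE and 5 with filterByExpr or batch 3. For burn, DESeq2 called 3, 2, 27 and 80 genes in CaMKII positive, double-positive, astrocyte and microglia libraries. No filter called 14 in double-positive libraries and 4 in astrocytes. All 63 libraries, with the library of 331215 counts from sham mouse 8 among them, called 136 in double-positive libraries. The cause of these differences was not tested. Correlations called fell to 0 within batch 3, with TMM-scaled CPM or without the 2 farthest mice.

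With single mice left out, the ranges were 1 to 2 members between double-positive libraries and microglia, 4 to 23 genes for the interaction, and 0 to 61, 97 to 356, 60 to 532 and 54 to 217 genes for batch in CaMKII positive, double-positive, astrocyte and microglia libraries. Signs changed for Nr3c1 (-0.059 to 0.092) between CaMKII positive libraries and astrocytes, for Nr3c1 (-0.13 to 0.0091) and Tsc22d3 (-0.14 to 0.067) between CaMKII positive and double-positive libraries, and for Ddit4 (-0.016 to 0.20), Fkbp5 (-0.0032 to 0.090) and Zbtb16 (-0.65 to 0.20) between double-positive libraries and microglia. For burn they changed in CaMKII positive libraries for Tsc22d3 (-0.13 to 0.35) and Zbtb16 (-0.68 to 0.29), in astrocytes for Dusp1 (-0.046 to 0.13) and Fkbp5 (-0.24 to 0.39), in double-positive libraries for Dusp1 (-0.019 to 0.18), Hif3a (-0.11 to 0.12), Nr3c1 (-0.035 to 0.038), Nr3c2 (-0.029 to 0.066) and Tsc22d3 (-0.022 to 0.22), and in microglia for Fkbp5 (-0.035 to 0.21), Hif3a (-0.024 to 0.33), Klf9 (-0.14 to 0.25), Nr3c2 (-0.099 to 0.0030) and Zbtb16 (-0.32 to 0.49).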
